A study of Mus musculus with 2 samples.

Results

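Lgr5 cells with and without an Atoh1 history were compared on 1 two-colour microarray. Lgr5 marks the crypt base columnar stem cells of the intestine, and Atoh1 is the transcription factor that commits crypt cells to the secretory lineage. The members are all named, non-control genes whose probes lay above background in both channels, that is, above the mean plus 2 SD of the blank spots. By this rule 11774 genes were measured, of 16389 named on the array, through 11910 probes. Just inside the limit were Olfml1 (74.1 in Cy5, at the Cy5 limit), Tmem89 and Il19 (both 82.2 in Cy3, at the Cy3 limit), and just outside it Slc1a7, Olfr194 and Tmed11, whose Cy3 intensities rounded to the same 82.2.

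Every cell came from small intestinal epithelium of mice with 3 engineered alleles. Atoh1-crePGR is a Cre that RU486 switches on where Atoh1 is expressed, Lgr5-EGFP-IRES-creERT2 places EGFP at Lgr5, and Rosa26-tdTomato is the reporter that Cre activates. EGFP at the Lgr5 locus reports current Lgr5 expression. RU486, injected on 5 consecutive days, activated the Cre that is driven by Atoh1, so that tdTomato came on for good in Atoh1-expressing cells and in all cells that descended from them. Cells pooled from 4 mice were sorted 20 days after recombination. The population with both proteins (EGFP+ve/tdTomato+ve, double positive below) carried Cy3, and the population with EGFP alone (EGFP+ve/tdTomato-ve, EGFP only below) carried Cy5. Both populations thus share all alleles, the inducer and the pool of mice. The Lgr5 allele also encodes a Cre of its own, creERT2, for which the labels give no inducer. A cell without tdTomato can be one that never expressed Atoh1-crePGR or one in which recombination did not occur. The sources used here give no age for the mice.

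Each population is 1 sample on 1 array without dye swap, so the spread between replicates is unknown, nothing was tested, and the counts below rest on the size of the ratio alone. Values are given as normalized intensities of both channels, in scanner units, and as the log2 ratio of double positive over EGFP only. A log2 ratio of 1 is a 2-fold higher signal. A further array of the series carried RNA labelled as the same EGFP-only population. That channel was compared between both arrays for 11597 probes above background, after background correction with an offset of 50 and loess between them. The log2 differences that remained had an SD of 0.089, with 3 probes at least 2-fold apart. This gives the technical spread of 1 channel after those steps, not that between mice. Intensity limits were 74.1 in Cy5 and 82.2 in Cy3, and 25 probes, 8 of them in named genes, were at the scanner's ceiling in Cy3 and none in Cy5. In a mixed population, fewer cells of a type and less of its RNA per cell cannot be told apart.

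The crypt base holds the stem cells wedged between Paneth cells, which secrete antimicrobial proteins and supply Wnt, EGF and Notch signals to them. Atoh1 acts downstream of lateral inhibition by Notch. Cells that express it become Paneth, goblet, enteroendocrine or, in part, tuft cells, while cells without it become absorptive enterocytes. Goblet and Paneth cells load the endoplasmic reticulum with secreted protein, and the unfolded protein response keeps its chaperones in supply.

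Across all 11774 genes, 601 had a log2 ratio of 1 or more, which is 5.10% of the genes measured, and 40 had one of −1 or less, which is 0.340%. The middle of the distribution was narrow, with 11133 genes within 2-fold, a median log2 ratio of −0.01 and quartiles of −0.18 and 0.23. The upper tail was long. It held 182 genes at least 4-fold, 72 at least 8-fold and 28 at least 16-fold higher, against 1 gene, Dmbt1, at least 4-fold lower. Ordered by brightness, the 3925 dimmest genes held 31 of the higher and 0 of the lower genes, the 3924 in the middle 238 and 10 and the 3925 brightest 332 and 30. The offset used in background correction draws dim ratios towards 0, and with an offset of 16 in place of 50 the counts were 838 and 79. How many genes lay on each side depended on the background correction and on the normalization. With loess kept but the blank mean subtracted, 1239 were higher and 342 lower, and with median centring in place of loess 364 were higher and 740 lower. In the authors' deposited ratios, which cover 12429 genes and differ in both steps, 1516 were higher and 435 lower. Median centring moved the median of all genes to −0.21 and that of the 3925 brightest to −0.54. Values under it are given below relative to the all-gene median, while counts under it use the fixed limits of 1 and −1.

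**Figure D1:**
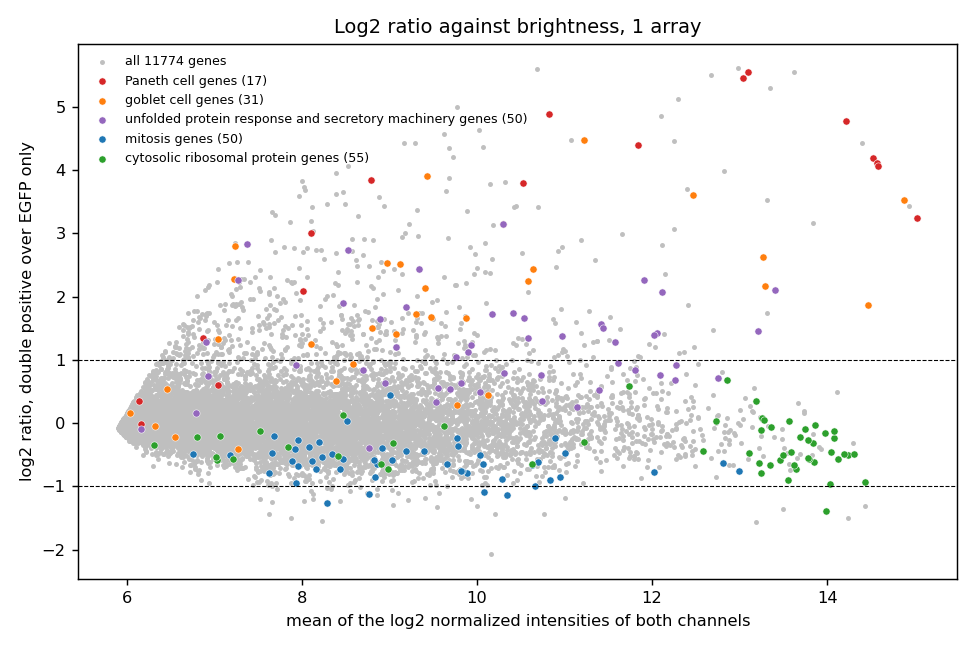
Each point is 1 gene on the single array, with the mean of its log2 normalized intensities on the horizontal axis and the log2 ratio of double positive over EGFP only on the vertical axis; dashed lines mark 2-fold. Paneth cell genes (red) reach 5.55, secretory machinery genes (purple) lie mostly above 0, and ribosomal protein (green) and mitosis genes (blue) mostly below 0.

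Lgr5 and nearly all measurable stem cell markers were above background on both sides, and so were epithelial transcripts such as Epcam (10710 against 15660). Lgr5 had normalized intensities of 670.5 in the double-positive and 561 in the EGFP-only population, a log2 ratio of 0.26 (0.13 in the authors' deposited ratios, and −0.05 relative to all genes with median centring). Of 30 crypt base columnar stem cell genes listed, 27 were on the array and 26 were measured, all but Sorbs2, with 18 of them below 0, and the median log2 ratio was −0.22 (−0.45 in the authors' deposited ratios). Olfm4, a secreted glycoprotein of the stem cell, had 5422 against 15950, a log2 ratio of −1.56. The water channel gene Aqp4 stood at −1.19, Cdca7, a cell division and chromatin factor, at −1.18, the urea transporter gene Slc14a1 at −0.98 and the gastrokine gene Gkn3 at −0.94. Smoc2 (549 against 948) and Ascl2, the transcription factor that maintains stem cell identity (819 against 1149), were nearer to 0, at −0.79 and −0.49. The exception in the list was Msi1, an RNA-binding protein gene of stem cells, at 369 against 78.5 and a log2 ratio of 2.23, the only member at least 2-fold higher.

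Genes reported for reserve or +4 stem cells were mixed. Of 12 listed, 9 were measured, and their median log2 ratio of 0.10 was −0.15 in the authors' deposited ratios and −0.05 relative to all genes with median centring. Apart from Msi1, which is in this list too, no member was past 2-fold in either direction. Hopx stood at 0.60 (7088 against 4685), Clu at 0.42, Lrig1 at 0.10, Dclk1 at −0.09, Bmi1 at −0.18, Tert at −0.27 and Prom1 at −0.35.

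Genes of the Paneth cell had the highest median of the 41 gene lists. Of 35 listed, 17 were measured, and 14 were higher by 2-fold or more (82.4%, against 5.10% of all genes measured). In the other direction 0 were past 2-fold. The median log2 ratio was 3.85 (3.45 in the authors' deposited ratios, 2.86 after quantile normalization). Clps, the colipase gene, had 59760 in the double-positive and 1275 in the EGFP-only population, a log2 ratio of 5.55. Pnliprp2, a lipase gene, followed at 5.45 (55540 against 1269), and Nupr1, a stress-induced chromatin protein gene, at 4.90 (9862 against 331). Guca2b, which encodes uroguanylin, stood at 4.40 (16780 against 795), the hyaluronan-binding protease gene Habp2 at 3.85 (1677 against 117), the ribonuclease gene Rnase1 at 3.79 and Copz2, a coat protein gene of transport vesicles, at 3.00.

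For 8 named genes, 5 of them in the Paneth list and 1, Spink4, in the goblet list, the Cy3 spot was at the scanner's ceiling, so their ratios are underestimates. They were Mmp7 (4.77), the protease that activates defensins, the pentraxin gene Mptx1 (4.42), the angiogenin gene Ang4 (4.19), the defensin genes Defa5 (4.11) and Defcr3 (3.43), the phospholipase gene Pla2g2a (4.07), Spink4 (3.52) and the lectin gene Itln1 (3.24). Their Cy5 spots were not saturated. In the EGFP-only population Itln1 had a normalized intensity of 10910 and Mmp7 one of 3627. Alpha-defensin genes are near-identical copies, as are Ang2 and Ang5, so the member behind each probe is uncertain. Among surface and signalling genes, the receptor tyrosine kinase gene Kit stood at 2.08 (531.6 against 125.3), the Wnt ligand gene Wnt3 at 1.35 (188 against 73.5), the Notch ligand gene Dll4 at 0.60 and the Wnt receptor gene Fzd5 at −0.01.

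Goblet cell genes were higher in the double-positive population as well. Of 31 measured, 22 were at least 2-fold higher (71%, against 5.10% of all genes measured) and none 2-fold lower. The median log2 ratio was 1.72, against 2.11 with the blank mean subtracted, 1.57 after quantile normalization and 1.35 above the all-gene median with median centring. The chemokine gene Ccl6 stood at 4.47 (11240 against 507), Ramp1, a co-receptor of the calcitonin receptor family, at 3.91 (2674 against 178), the guanylin gene Guca2a at 3.61 and the resistin-like gene Retnlb at 2.80 (398 against 57.0). Agr2, the disulphide isomerase that goblet cells need to fold mucin, had 24510 against 3963, a log2 ratio of 2.63. The trefoil factor gene Tff3, among the 10 brightest genes without a saturated spot, had 43410 against 11830, a log2 ratio of 1.88. Muc2, the gel-forming mucin gene, went the other way at −0.40, with dim spots on both sides (134 against 177), and its single probe gives no further check. Clca1 had 3 probes that disagreed, at −0.50, −0.35 and 2.17.

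Transcription factors of the secretory lineage lay on both sides. Of 25 measured, 7 were higher by 2-fold or more (28%, against 5.10% of all genes measured). In the other direction, 1 was lower by as much (4%, against 0.340%). The median log2 ratio of 0.13 changed sign in the authors' deposited ratios (−0.06) and without a filter on dim probes (−0.03). Factors of goblet and Paneth cells were among those above. Spdef, which drives goblet and Paneth maturation, stood at 2.53 (1207 against 209), the corepressor gene Cbfa2t3 at 2.23, Klf4 at 1.90 (2131 against 570), Gfi1, which holds secretory cells off the enteroendocrine path, at 1.79 (257 against 74.4), Foxa3 at 1.50, Xbp1 at 1.29 (4778 against 1954) and Foxa1 at 1.11. Neurog3, the factor that starts the enteroendocrine program, had 175 against 512, a log2 ratio of −1.55, and Neurod1, which follows it, stood at −0.74.

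Most enteroendocrine genes lay below 0, and by how much depended on the setting. Of the 30 measured, 22 lay below 0 and 6 were at least 2-fold lower (20%, against 0.340% of all genes measured). The median log2 ratio was −0.20 (−0.68 in the authors' deposited ratios, and −0.05 relative to all genes with median centring). The hormone genes Ghrl (ghrelin, 140 against 393, −1.49), Gip (722 against 1944, −1.43) and Cck (450.4 against 1021, −1.18) and the granin gene Chgb (652 against 1610, −1.30) were past 2-fold. Reg4, a lectin gene used as an enteroendocrine marker and found in other secretory cells too, was the exception at 4.46 (22750 against 1035). Tuft cell genes had no member past 2-fold among 18 measured, where 94.6% of all genes measured lay within 2-fold. The tuft list median of −0.14 became 0.04 above the all-gene median with median centring. Avil, an actin regulator gene of tuft cells, stood at −0.69, Rgs13 at −0.61 and the taste channel gene Trpm5 at −0.47. Of 26 tuft cell genes on the array, Gnat3 and Il25 passed the background limit with double-positive RNA alone (7.69%, against 8.44% of all named genes). Pou2f3 and Gfi1b passed it with EGFP-only RNA alone (7.69%, against 0.738%). Both were dim in either channel, Pou2f3 at 61.5 in EGFP only against 56.4, and Gfi1b at 65.9 against 58.05.

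**Figure D2:**
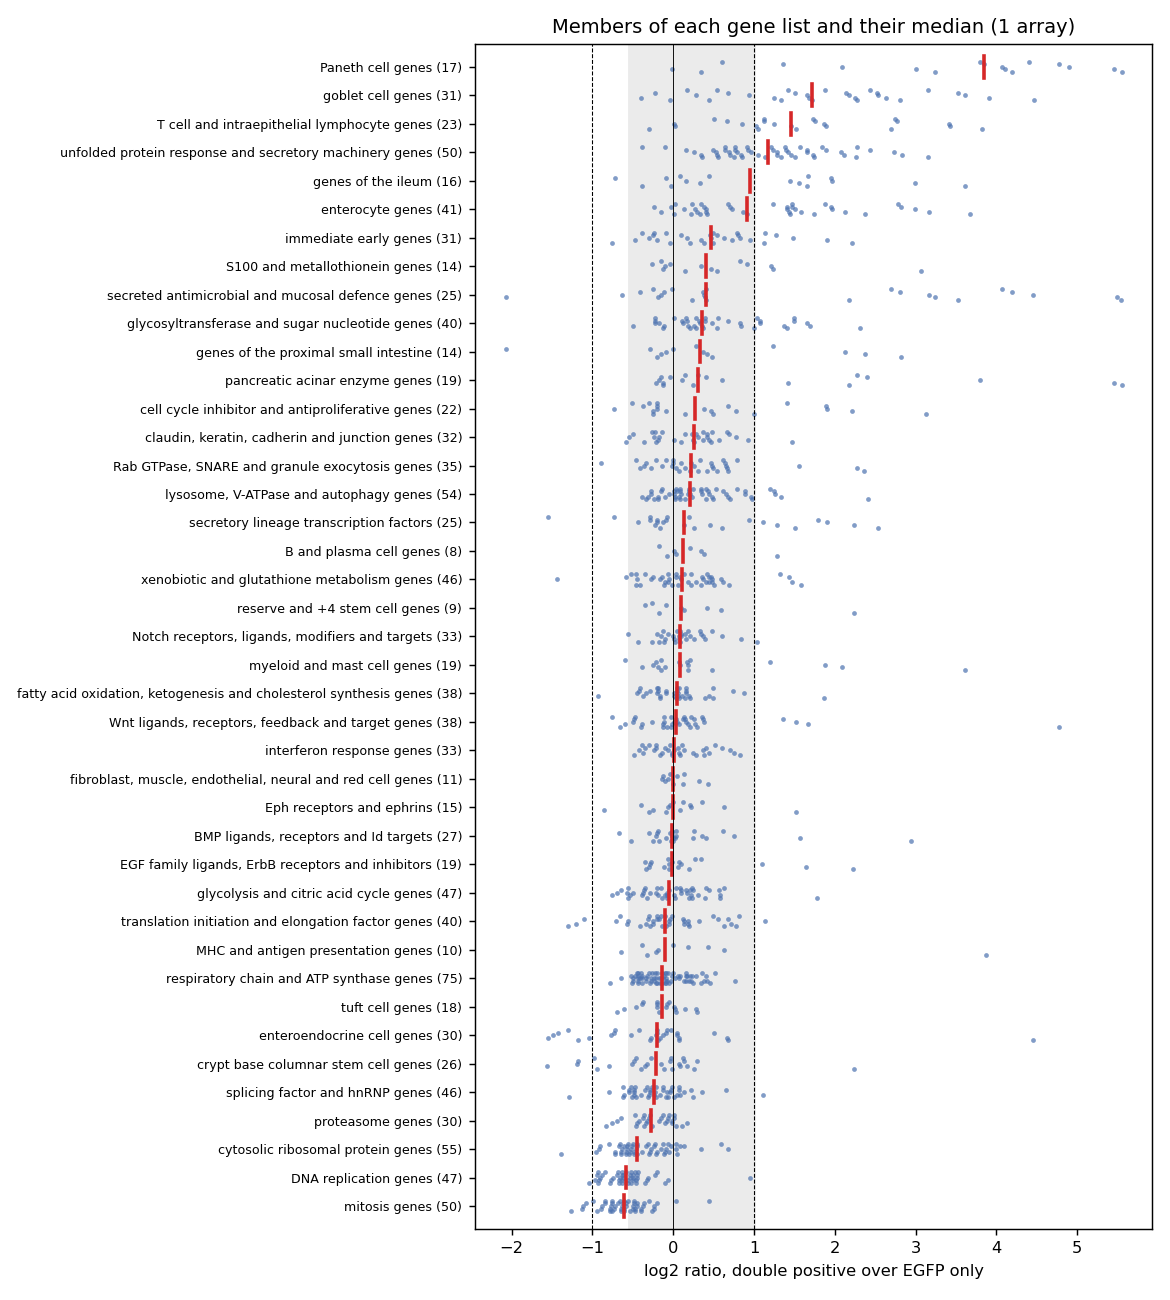
Each point is a measured member of the gene list named on the left, with the number of members in parentheses; red bars are list medians, the grey band spans the 5th to 95th percentile of all 11774 genes (−0.54 to 1.02) and dashed lines mark 2-fold. Paneth, goblet, lymphocyte and secretory machinery genes have medians right of 1, and DNA replication and mitosis genes medians near −0.6.

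Secretory cells carry a large endoplasmic reticulum, and its genes were higher as a group. Of 50 measured genes of the unfolded protein response and secretory machinery, 48 lay above 0. In that list 27 were higher by 2-fold or more (54%, against 5.10% of all genes measured) and 0 lower by as much. The median log2 ratio was 1.17 (0.99 in the authors' deposited ratios and 0.73 above the all-gene median with median centring). Sensors and stress outputs were among them. Ern2, the stress sensor of mucus-secreting epithelia, had 3741 against 420, a log2 ratio of 3.16. Chac1, a glutathione-degrading enzyme gene of the stress response, had 443 against 62.1 (2.84). Among chaperones and folding enzymes, Dnajb9 had 952 against 143 (2.73), Dnajc3 had 1501 against 278 (2.43), the disulphide isomerase gene P4hb 22600 against 5232 (2.11) and Hspa5, the lumenal chaperone BiP, 15730 against 5734 (1.46). The translocon gene Tram1 stood at 2.27 (8411 against 1742), the retrieval receptor gene Kdelr3 at 2.27 (338 against 70.3) and Sec11c, of the signal peptidase, at 2.07. The degradation factor gene Herpud1 had 2483 against 743, a log2 ratio of 1.74. The members below 0 were Derl1 (−0.39) and Trib3 (−0.10).

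Promoter sequences are given for genes of 2 groups that lay on opposite sides, the secretory machinery and the dividing cell, because their known regulatory motifs can be read from the letters. Only list members that hold the motif were eligible for printing, so its presence in these windows is no finding. The windows run 250 bases before the RefSeq start site (GRCm38.p6), 5′ to 3′ on the gene's strand, with motifs in capitals. The endoplasmic reticulum stress element, ERSE (CCAAT and CCACG, 9 bases apart), is in capitals for Dnajc3 and Hspa5, and the related ERSE-II (ATTGG and CCACG, 1 base apart) for Herpud1. Dnajc3 lies at chr14:118937682-118937931 (plus strand), Hspa5 at chr2:34771840-34772089 (plus strand) and Herpud1 at chr8:94386179-94386428 (plus strand).
Dnajc3: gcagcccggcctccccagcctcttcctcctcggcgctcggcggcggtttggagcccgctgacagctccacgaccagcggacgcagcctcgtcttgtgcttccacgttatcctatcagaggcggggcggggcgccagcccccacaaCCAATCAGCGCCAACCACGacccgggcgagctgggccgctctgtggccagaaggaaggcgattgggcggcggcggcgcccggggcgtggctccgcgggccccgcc
Hspa5: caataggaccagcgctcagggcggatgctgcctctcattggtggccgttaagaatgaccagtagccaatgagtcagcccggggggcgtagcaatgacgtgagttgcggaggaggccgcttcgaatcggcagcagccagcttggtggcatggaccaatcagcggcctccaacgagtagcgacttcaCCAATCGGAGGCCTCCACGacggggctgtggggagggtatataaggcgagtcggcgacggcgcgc
Herpud1: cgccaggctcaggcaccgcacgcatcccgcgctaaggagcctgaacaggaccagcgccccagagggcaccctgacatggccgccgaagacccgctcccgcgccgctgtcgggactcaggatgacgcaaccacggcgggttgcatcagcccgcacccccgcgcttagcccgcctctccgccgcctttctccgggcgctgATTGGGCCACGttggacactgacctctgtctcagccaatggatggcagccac

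Among measured genes with a RefSeq promoter window of 300 bases (250 before and 50 after the start, 9518 genes), ERSE was found on either strand in 0.2% and ERSE-II in 0.0841%. Over all 27025 genes with a window the shares were 0.137% and 0.0444%. Of the 41 secretory machinery genes with a window, 9 held ERSE (22%) and 2 held ERSE-II (4.88%). Within that list the motif did not mark the genes that were past 2-fold, since ERSE was in 4 of the 21 members at least 2-fold higher and in 5 of the other 20. Hsp90b1, with 2 copies, had a log2 ratio of 0.71, and Canx and Calr, with 1 copy each, 0.53 and 0.34. Over all genes at least 2-fold higher, 5 of the 459 with a window held ERSE (1.09%), and 4 of these 5 were the secretory machinery members just counted.

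Machinery further along the secretory route was less far from 0. The 40 measured glycosyltransferase and sugar nucleotide genes had a median log2 ratio of 0.36 (0.49 in the authors' deposited ratios). Of them, 10 were past 2-fold, all of them higher (25%, against 5.10% of all genes measured). They included C1galt1c1, the chaperone of core O-glycan synthesis (1763 against 354, 2.31), the branching enzyme gene Gcnt3 (1.69), Galnt12 (1.66), Galnt3 (1.41), which start O-glycans, Gfpt1 (1.50), which makes hexosamine, and Fut8 (1.50). Of 35 Rab, SNARE and granule exocytosis genes, 3 were at least 2-fold higher (8.57%, against 5.10% of all genes measured). These were Rab3d, a GTPase of secretory granules (1283 against 250, 2.36), and the granule tethers Sytl2 (330 against 68.2, 2.27) and Sytl1 (1.56), while Vamp3, a SNARE of recycling endosomes, stood at −0.90. Galnt12 and Sytl2 are in the goblet list too. Of 54 lysosome, V-ATPase and autophagy genes, 5 were at least 2-fold higher (9.26%, against 5.10% of all genes measured). They were the proteases Lgmn (1124 against 211, 2.41) and Ctsl (1.33), the autophagy genes Atg7 (1.26) and Sqstm1 (1.19), and Cd63 (1.25). The median of that list was 0.20, and 0.03 relative to all genes with median centring.

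Genes of the dividing cell were lower as a group and by less than 2-fold for most members. Of 47 measured DNA replication genes, 46 lay below 0, with a median log2 ratio of −0.58. In that list 1 was at least 2-fold lower (2.13%, against 0.340% of all genes measured). Of 50 mitosis genes, 48 lay below 0, with a median of −0.61, and 4 were at least 2-fold lower (8%, against 0.340%). Both medians were lower with the blank mean subtracted, with median centring, after quantile normalization and in the authors' deposited ratios, where they stood at −0.84 and −0.885. In the replication list the helicase gene Mcm2 had 225 against 464 (−1.04), the thymidine kinase gene Tk1 794 against 1558 (−0.97), the primase gene Prim1 984 against 1885 (−0.94), and Rfc1, the large subunit of the clamp loader, was the exception at 0.95. In the mitosis list the kinase gene Plk1 had 202 against 485 (−1.26), the cyclin gene Ccna2 879 against 1925 (−1.13), the spindle protein gene Tacc3 295 against 640 (−1.12), Cdca3 742 against 1574 (−1.08) and the chromosomal passenger gene Birc5 1150 against 2287 (−0.99).

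The windows of Ckap2, a spindle protein gene (177 against 340, −0.94; chr8:22185820-22186069, minus strand), and of Mcm6, a subunit of the replicative helicase (1029 against 1921, −0.90; chr1:128359706-128359955, minus strand), show the motifs known from such genes. Capitals mark the cell cycle homology region, CHR (TTTGAA), in Ckap2 and 2 copies of an E2F site (TTTGGCGC) in Mcm6.
Ckap2: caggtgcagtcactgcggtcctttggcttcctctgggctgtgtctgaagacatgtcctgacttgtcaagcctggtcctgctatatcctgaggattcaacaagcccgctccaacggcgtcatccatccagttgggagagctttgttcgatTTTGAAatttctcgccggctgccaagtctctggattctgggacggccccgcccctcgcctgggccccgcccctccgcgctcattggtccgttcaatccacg
Mcm6: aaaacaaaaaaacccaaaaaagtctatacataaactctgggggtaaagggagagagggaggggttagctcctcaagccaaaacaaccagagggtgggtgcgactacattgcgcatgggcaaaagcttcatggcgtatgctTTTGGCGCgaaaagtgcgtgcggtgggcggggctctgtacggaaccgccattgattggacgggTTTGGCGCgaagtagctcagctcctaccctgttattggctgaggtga

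CHR was found, on either strand, in 31 of 43 mitosis genes with a window (72.1%) and in 15.3% of all measured genes with one. An E2F site in either of its forms (TTTCCCGC or TTTGGCGC) was in 12 of 39 DNA replication genes with a window (30.8%) and in 3.14% of measured genes with one. Replication genes held CHR at 15.4%, near the share of all measured genes. No window of a secretory machinery gene held CHR, and 1 of 41 held an E2F site. No window of a mitosis or replication gene held ERSE. At 0.2% of measured genes with a window, ERSE is too rare for that absence to tell the lists apart. TTTGAA is short, and it was found in 20.2% of all 27025 genes with a window.

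**Figure D3:**
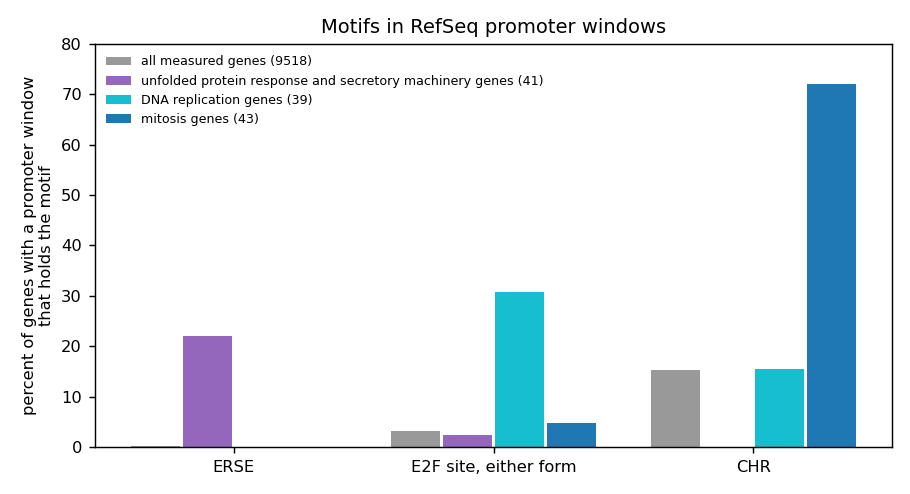
Bars give the percentage of genes with a RefSeq promoter window that hold each motif on either strand, for all 9518 measured genes with a window and for 3 gene lists; a missing bar is 0. ERSE stands at 22% in the secretory machinery list, the E2F site at 30.8% in the replication list and CHR at 72.1% in the mitosis list.

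Inhibitors of the cell cycle were split. Of 22 measured, 6 were past 2-fold, all of them higher (27.3%, against 5.10% of all genes measured). The median log2 ratio of 0.26 was −0.00 relative to all genes with median centring. Gadd45g, a stress-induced growth arrest gene, had 3447 against 394 (3.13), the antiproliferative gene Btg2 2020 against 434 (2.22), the p53-induced gene Trp53inp1 415 against 111 (1.90), and Cdkn1a, the cyclin-dependent kinase inhibitor p21, 416 against 158 (1.40). Rbl2, a pocket protein gene of quiescent cells, stood at −0.73. Immediate early genes, which respond within minutes to growth factors and to tissue handling, had a median of 0.47 over 31 genes, and 0.20 relative to all genes with median centring. Of these, 6 were at least 2-fold higher (19.4%, against 5.10% of all genes measured). Egr1 stood at 1.49 (5320 against 1897), Nr4a1 at 1.27, Jun at 1.13 and Atf3 at 1.12, and Btg2 and Klf4 belong to this list as well.

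Translation genes lay below 0, most of all the bright ribosomal protein genes. Of 55 measured ribosomal protein genes, 47 lay below 0 and 1 was at least 2-fold lower (1.82%, against 0.340% of all genes measured). The median log2 ratio was −0.45. That value differed between settings and was −0.34 with the blank mean subtracted and −0.94 in the authors' deposited ratios, and with median centring it was −1.04 relative to all genes. Rps3 had 10080 against 26310 (−1.38), Rpl41 had 16080 against 30480 (−0.92), and Rps27l, a p53-responsive paralog, stood at 0.68. Ribosomal protein genes have many pseudogene copies, which a probe may share. Among 40 translation factor genes the median was −0.10, with Eef1a1 at −1.31 (14060 against 34800), Eif4b at −1.21, Eif4h at −1.10 and Eif4g2, an initiation factor of cap-independent translation, at 1.14. Proteasome genes had a median of −0.28 over 30 genes and splicing factor genes one of −0.23 over 46. In the latter list Srsf1 stood at −1.29 and U2af2 at 1.11.

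Genes of energy metabolism stayed within 2-fold for nearly all members, as did 94.6% of all genes measured. None of 75 respiratory chain and ATP synthase genes was past 2-fold, with a median log2 ratio of −0.13 (−0.58 in the authors' deposited ratios), from Atp5o at −0.79 to Ndufa1 at 0.77. Among 47 glycolysis and citric acid cycle genes the median was −0.05 (−0.40 relative to all genes with median centring), and Pck1, the gluconeogenic carboxykinase gene, was alone past 2-fold at 1.78 (299 against 86.8). Among 38 genes of fatty acid oxidation, ketogenesis and cholesterol synthesis the median of 0.05 turned to −0.07 in the authors' deposited ratios, and Acaa1b, a peroxisomal thiolase gene, stood at 1.86 and the cholesterol synthesis gene Idi1 at −0.93.

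Genes of the absorptive lineage, which does not pass through Atoh1, were higher too. Of 41 measured enterocyte genes, 20 were past 2-fold, all of them higher (48.8%, against 5.10% of all genes measured). The median log2 ratio was 0.91 (1.46 in the authors' deposited ratios). The lipoprotein genes Apoc2 (2865 against 225, 3.67), Apoa1 (2.78) and Apoa4 (2.38) were among the highest members of the list. So were the fatty acid binding protein gene Fabp1 (11740 against 1666, 2.82) and the antimicrobial lectin gene Reg3g (43820 against 4883, 3.17). Markers of both ends of the small intestine were among the higher genes, and of those named here Fabp6 and Lct are in the enterocyte list too. Of 16 measured genes of the ileum, 8 were at least 2-fold higher (50%, against 5.10% of all genes measured). Among them were Fabp6, the ileal bile acid binding protein gene (9089 against 1145, 2.99), and both subunits of the basolateral bile acid transporter, Slc51b (1.67) and Slc51a (1.66). The apical bile acid transporter gene Slc10a2 stood at −0.03. Of 14 genes of the proximal intestine, 4 were at least 2-fold higher (28.6%, against 5.10% of all genes measured), such as the lactase gene Lct (431 against 98.5, 2.13). Dmbt1, which encodes a mucosal glycoprotein, was the lowest gene at −2.08 (557 against 2348), and among the 3 lowest under each alternative. The median of the proximal list was 0.33, and 0.19 relative to all genes with median centring. The keratin gene of mature surface cells, Krt20, had a mean of 1.47 over probes at 0.67 and 2.26.

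Xenobiotic and junction genes held a few members past 2-fold. Of 46 measured genes of xenobiotic and glutathione metabolism, 4 were at least 2-fold higher (8.7%, against 5.10% of all genes measured). They were the cytochrome genes Cyp4f14 (1.58), Cyp3a13 (1.47) and Cyp2d26 (1.43), which are in the enterocyte list too, and the transferase gene Gsta2 (1.33). The glucuronosyltransferase gene Ugt1a6a was lower at −1.44 (120 against 324). The xenobiotic list median of 0.11 turned to −0.05 against the all-gene median with median centring. Among 32 claudin, keratin, cadherin and junction genes, Krt20 alone was past 2-fold (3.12%), and it is in the enterocyte list too. Cldn4 stood at 0.93 and the adhesion gene Epcam at −0.55 (10710 against 15660). The junction list median of 0.25 turned to −0.12 against the all-gene median with median centring.

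Signals of the stem cell niche showed single genes rather than whole pathways past 2-fold. Among 38 measured Wnt genes, 4 were past 2-fold, all of them higher (10.5%, against 5.10% of all genes measured), and the median was 0.04. Besides Mmp7 and Wnt3, these were the feedback inhibitor gene Nkd1 (347 against 109, 1.67) and Ephb3, a receptor that positions Paneth cells (792 against 277, 1.51). The Wnt target gene Cd44 and the receptor gene Fzd2 stood at −0.65 and −0.75. Of 15 Eph receptor and ephrin genes, Ephb3 alone was past 2-fold (6.67%). Its paralog Ephb2 stood at −0.40 and the ligand gene Efna4 at −0.85. Among 19 EGF family genes 3 were past 2-fold, all of them higher (15.8%, against 5.10% of all genes measured). The ligand gene Egf itself had 337 against 71.9 (2.23), and the feedback genes Dusp6 and Errfi1 stood at 1.64 and 1.10. Among 27 BMP genes 2 were past 2-fold, both higher (7.41%, against 5.10% of all genes measured). They were the decoy receptor gene Bambi with 1563 against 203 (2.94) and the ligand gene Bmp7 with 633 against 213 (1.57). The target genes Id1 and Id3 stood at −0.67 (1307 against 2086) and −0.52. The medians of the Eph, EGF and BMP lists were −0.00, −0.01 and −0.01, and each was above 0 in the authors' deposited ratios.

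Notch genes, which decide between stem cell and Atoh1 fate, were close to 0. Of 33 measured, Dtx1, a ubiquitin ligase gene of the pathway, was alone past 2-fold at 1.03 (132 against 64.6). That is 3.03% of the list, against 5.10% of all genes measured. Adam17, which can cleave the receptor, stood at 0.84, the ligand gene Dll4 at 0.60, Notch4 at 0.48, Dtx2 at −0.44 and the target gene Hes5 at −0.56. The median was 0.09, and 0.13 relative to all genes with median centring. The receptor gene Notch1 stood at −0.20, the target gene Hes1 at 0.18 and the ligand gene Dll1 at 0.25.

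Secreted defence genes overlap with the Paneth and goblet lists, but as a list they were split. Of 25 measured, 11 lay 2-fold or more above 0 (44%, against 5.10% of all genes measured), and 8 lay below 0. Dmbt1 alone was lower by 2-fold or more. The median log2 ratio of 0.40 was 0.05 relative to all genes with median centring. The angiogenin probes Ang2 and Ang5 stood at 5.55 (86500 against 1848) and 5.50 (43940 against 971), and cannot be assigned to 1 member of their family. Interferon response genes had none of 33 members past 2-fold, where 94.6% of all genes measured lay within 2-fold. Oas1a stood at 0.83, Stat2 at 0.76 and Psmb10 at −0.49, and the median was 0.01. Of 10 MHC and antigen presentation genes, 1 was past 2-fold, and it was higher (10%, against 5.10% of all genes measured). Ciita, the coactivator that switches on MHC class II genes, had 3138 against 214 (3.87), while the class II gene H2-Aa stood at −0.33 (3450 against 4324), the invariant chain gene Cd74 at −0.21 (4241 against 4901) and the transporter gene Tap1 at −0.65. Of 14 S100 and metallothionein genes, 3 were past 2-fold, all of them higher (21.4%, against 5.10% of all genes measured). Mt2 had 14170 against 1686 (3.07) and its neighbour Mt1 3178 against 3467 (−0.13), and S100g and S100a6 stood at 1.24 and 1.22.

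**Figure D4:**
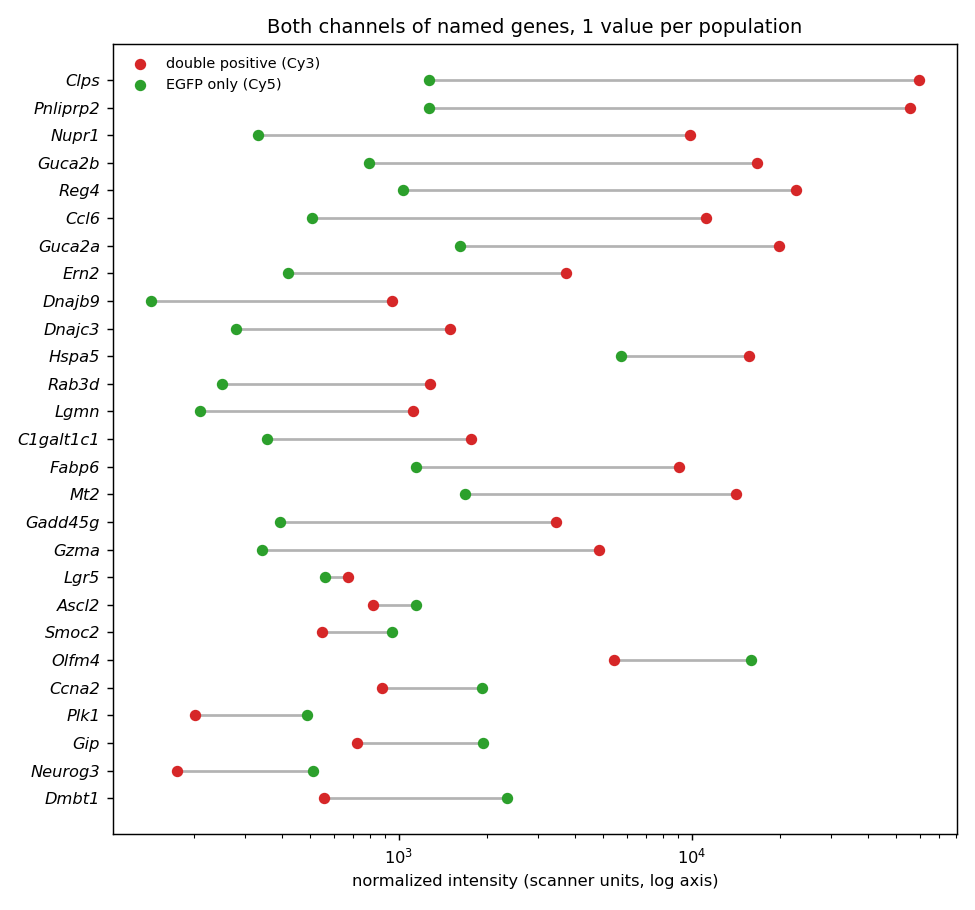
Both channels of named genes are shown on a log axis of normalized intensity in scanner units, red for double positive (Cy3) and green for EGFP only (Cy5), 1 value for each population. Clps is furthest apart (59760 against 1275), the dots of Lgr5 nearly meet (670.5 against 561), and Olfm4, Plk1, Gip and Dmbt1 have the green dot on the right.

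Transcripts of intraepithelial lymphocytes, which are not epithelial, were higher in the double-positive population. Of 39 listed genes, 23 were measured and 17 were past 2-fold, all of them higher (73.9%, against 5.10% of all genes measured). Their summed normalized intensity was 20640 against 4194, and the median log2 ratio was 1.46 (3.08 in the authors' deposited ratios). Gzma, the granzyme gene of cytotoxic cells, had 4815 against 342 (3.82), and the receptor genes Cd8a and Cd3g had 771 against 115 (2.75) and 526 against 80.9 (2.70). Over the whole array, 8.44% of named genes passed the background limit with double-positive RNA alone and 0.738% with EGFP-only RNA alone. In the lymphocyte list these were 6 of the 31 genes on the array, such as Prf1 and Cd5, with bounds of 1.10- to 1.28-fold, and 0. Cd3e and Klrk1 were not above background in either, and Cd4 stood at 62.4 and 61.8, near the lowest normalized intensities measured. Myeloid and mast cell genes had a summed intensity of 8133 against 7232 over 19 genes and a median of 0.08, with C1qb at 3.62 (1170 against 95.3) and Fcer1g at 1.88, and 4 of 27 members on the array, such as C1qa and Adgre1, past the limit with double-positive RNA alone. B and plasma cell genes summed to 955 against 803 over 8 genes, with 2 of 13 past the limit with double-positive RNA alone, and fibroblast, muscle, endothelial, neural and red cell genes to 1038 against 1002 over 11, with Kdr highest at 0.43 and Pecam1 and Des not above background. Of the 25 genes of that last list on the array, 5 (Dcn, Lum, Sparc, Vwf and Elavl4) passed the limit with double-positive RNA alone and 1, Acta2, with EGFP-only RNA alone. The part of these cells in the 601 higher genes was not tested.

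Pancreatic enzymes were checked in the same way, since Clps, Pnliprp2 and Rnase1 are also acinar genes. Of 35 listed, 19 were measured and 7 were at least 2-fold higher (36.8%, against 5.10% of all genes measured). They included Pnliprp1 (356 against 73.4, 2.28) and Spink1 (2499 against 474, 2.40). Of 27 on the array, 8 were not above background in either population, among them Prss1, Prss2, Ctrb1, Cpa1, Pnlip and Cel. Elastase and other acinar genes of the list were measured in both, and the list median was 0.31. The list shares members with the Paneth, goblet and enterocyte lists.

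Many of the genes with the highest ratios are not established markers of an intestinal cell type. At the top were 2410004B18Rik at 5.61 (56460 against 1155) and Fry, which encodes a large microtubule-binding protein, at 5.60 (11500 against 236). Their order was the other way round in the authors' deposited ratios (5.12 and 5.63), where Fry had rank 1 and 2410004B18Rik rank 9. After quantile normalization 2410004B18Rik had rank 5. Saturated genes, whose ratios are underestimates, cannot be ranked against them. Also near the top were the adhesion molecule gene Iglon5 (39.3-fold), the neuropeptide gene Npff at 5.13 (29740 against 848), the noncoding transcript C130071C03Rik (32.1-fold), the GTPase activator gene Arhgap23 at 4.86, Radx, a single-strand DNA binding protein gene, at 4.63, the zinc finger gene Rsl1 at 4.57 and the apoptosis gene Bid at 4.48 (10190 against 457). Dnmt3l, Dbndd1, Bace1, Ccdc175 and Nucb2 completed the top 25 at 4.43, 4.43, 4.36, 4.34 and 4.21. Each of these had 1 probe, so no second probe bears on it. In genes with several probes a single one could set the mean. Gjc1 had probes at −0.34 and 6.05, Syne2 at −0.23 and 3.29, Gpr146 at −0.06 and 3.07 and Castor2 at −0.08 and 2.61. Among all 125 genes with several probes the median range was 0.24, and 13 had probes on both sides of a 2-fold limit.

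The 25 lowest genes included further ones outside the lists. The cyclophilin gene Ppia had 11470 against 32500 (−1.50), the chaperone gene Hspa8 7183 against 18420 (−1.36) and Adh7, an alcohol dehydrogenase gene of the upper gut, 1059 against 2864 (−1.44). Mrpl9 stood at −1.32, Mccc2 at −1.24, Pisd-ps3 at −1.23, the urea cycle gene Cps1 at −1.22, Isyna1 at −1.20, Prl3d3 at −1.19 and the ADP/ATP carrier gene Slc25a4 at −1.13. The other brightest genes without saturation, Rps18 (−0.49), Lars2 (−0.32), Rpl32 (−0.50), Rps14 (−0.49), Rps3a1 (−0.57) and Fth1 (0.49), lay within 2-fold.

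Genes seen on 1 side only were near the detection limit. Double-positive RNA alone passed the background limit for 1383 genes, 12 of them with a bound of at least 2-fold, and EGFP-only RNA alone for 121, none with such a bound. The highest bounds belonged to Abcc9 (at least 3.17-fold higher), Olfr374 (3.08), St6galnac6 (2.71), Klhdc8a (2.70), Samd5 (2.33) and Wfikkn2 (2.30) in the former, and to Olfr1387 (at least 1.18-fold higher in EGFP only), Fbxo46 (1.17), Gon4l, Zfp473, Hamp2 and Gdf3 (1.15 for Gon4l) in the latter.

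Some higher genes were neighbours on the chromosome. A neighbouring measured gene was at least 2-fold higher for 13.8% of 600 higher genes, and for 9.82% of all 11730 measured genes with a RefSeq position. There were 5 runs of 3 or more. The longest held 6 kallikrein genes, Klk1b7-ps (1.83), Klk1b8 (1.46), Klk1b1 (1.60), Klk1b11 (1.65), Klk1b26 (1.41) and Klk1b27 (1.11). These are near-identical copies, so the member behind each probe is uncertain. Another run joined Ccl5, Ccl9, Ccl6 and Wfdc18, another the apolipoprotein genes Apoa1, Apoc3 and Apoa4, and others Gimap4, Gimap6 and Gimap7 of lymphocytes and Myo15b, Recql5 and Smim5.

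**Figure D5:**
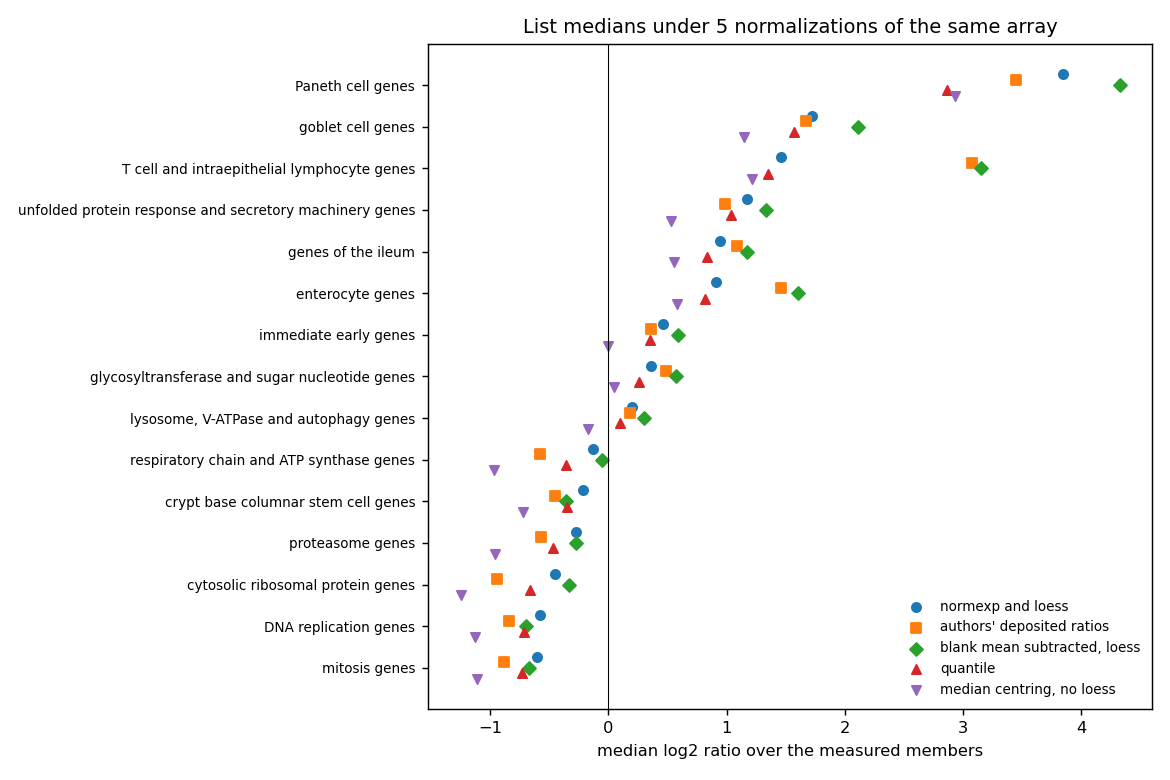
Symbols give the median log2 ratio of 15 gene lists under 5 normalizations of the same array, on the scale of each normalization. The Paneth, goblet, lymphocyte and secretory machinery medians lie right of 0 and the replication, mitosis and ribosomal medians left of 0 in all 5, and medians near 0, such as that of the lysosome genes, cross it with median centring, where the median of all genes is −0.21.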

How the data were processed

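Total RNA of the sorted cells was amplified and coupled to Cy dyes for a Toray two-colour array, per the labels' protocols. The authors deposited the median intensity of each of 27456 spots in the red and the green channel, as the file headers say, with no background subtracted, judging from the values. The authors also deposited normalized log2 ratios of double positive over EGFP only, per the labels. Blank-mean subtraction and centring gave these within 0.02 for 99.99% of 16987 values.

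Here intensities were corrected with normexp (offset 50, no local background) and loess within the array, with the 3982 control spots and 2 quality-marked probes at weight 0 (limma 3.58.1 in R 4.3.3), after a test on simulated data. Of 23474 probes, 68.9% were above background in Cy5 and 77.1% in Cy3. Median spot intensities were 98.3 and 104. The number of arrays limits the precision.

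The platform annotation named 16632 probes with 1 gene each and left 6842 unnamed here. Of the symbols, 3947 were updated through RefSeq (GRCm38.p6), 59 were ambiguous and 3 unmatched. A gene's value is the mean of its measured probes. For a gene above background in 1 channel, the bound divides its level by the lowest measured level or, where higher, by its own level in the dim channel. This bound is open to dye bias. Promoter windows came from RefSeq, and 9518 measured genes matched 1. The sources used here name no build for the array design. Probes for Atoh1 were not analysed here.

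Members, gene lists and the rule for named genes were chosen with earlier results of these data known. The rule took Lgr5, the 25 highest and 25 lowest genes, genes saturated in Cy3, and from each list up to 6 members, those furthest from 0 on the log2 scale. It also took the 6 highest bounds per channel, 3 genes on each side of the limit, the 5 genes whose probes disagreed most and the 10 brightest unsaturated genes. Chosen after their values were seen were Epcam, Smoc2, Ascl2, Lrig1, Dclk1, Habp2, Copz2, Fzd5, Agr2, Muc2, Xbp1, Foxa1, Neurod1, P4hb, Hspa5, Sec11c, Herpud1, Derl1, Trib3, Hsp90b1, Canx, Calr, Mcm6, Rbl2, Rps27l, Slc10a2, Notch1, Hes1, Dll1, Cd74, Mt1, Cd4, list members not measured in both channels, and the neighbouring genes. Alternatives covered the normalization, the offset, the background limit, the probe rule, the Cy5 channel and saturated genes. No test was made, since each population is 1 sample.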

Additional observations from a re-analysis of the deposited data

How the results depend on the processing

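The number of genes at least 2-fold higher, 601, was 1516 in the authors' deposited ratios, 1239 with the blank mean subtracted and 364 with median centring in place of loess. It lay within 1.5 times under the other 7 alternatives, from 515 after quantile normalization to 838 with an offset of 16. The number at least 2-fold lower, 40, was 435 in the deposited ratios, 342 with the blank mean subtracted, 740 with median centring, 101 after quantile normalization and 79 with an offset of 16. It was 40 to 55 under the other 5. Of the genes past 2-fold, 93.8% were higher, against 77.7% in the deposited ratios, 78.4% with the blank mean subtracted, 83.6% after quantile normalization and 33.0% with median centring. These counts and shares use the same fixed limits on each scale, and with median centring the median of all genes was −0.21. Set against the median of all genes under each alternative, 7 of 41 list medians were on the other side with median centring, 5 in the deposited ratios, 5 with the Cy5 channel of the other array and at most 4 under each other alternative. Of 239 named genes, 14 were on the other side with median centring and 4 in the deposited ratios, all of them within 2-fold. The cause of these differences was not tested. With 1 array, no dye swap and no replicate, a dye effect on a single probe and a difference between populations cannot be told apart, and leaving out a replicate is not possible. No paired analysis was possible because each population has 1 sample. Dim probes near the background limit and saturated probes limit the ratios at both ends of the intensity range.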
